A study of Mus musculus with 32 samples.

Results

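Transcripts of 9 genes that mark B and T lymphocytes were followed in whole mouse lung: Ms4a1, Cd79a and Cd79b for B cells, and Cd3e, Cd3g, Cd4, Cd8a, Lck and Cd2 for T cells. The members were chosen by name, as every probe whose gene name on the array was one of the 9, out of 35715 distinct gene names. They were read by 13 probes, with 5 genes on 1 probe and 4 genes on 2 probes. The lungs came from C57Bl/6J mouse pups kept in 21% O2 or, from the day of birth, in 85% O2 until postnatal day (P) 5 or P14, and every pup had received either antimiR-34a, a locked nucleic acid inhibitor of the microRNA miR-34a, or a scrambled control, injected into the abdomen at P1 and P3. The ages are those of each sample's label and of the study's methods, and the extract protocol gives them as P5.5 and P14.5. This gave 8 groups of 4 mice, with 1 lung of 1 mouse on each of the 32 arrays. The 4 control groups were thus also injected animals, and pups of both sexes were used. The lungs had been flushed with saline through the heart before RNA was taken, which removes blood from the large vessels but does not remove lymphocytes within the tissue.

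B and T lymphocytes reach the lung from blood and from lymphoid organs, and both populations expand during the first weeks of mouse life. B cells carry the antigen receptor together with the Cd79a and Cd79b signalling chains, and mature B cells display the membrane protein Ms4a1, known as CD20. T cells mature in the thymus, which lies next to the lungs and is easily taken along in dissection. They carry the Cd3 chains of the T cell receptor, one of the coreceptors Cd4 or Cd8a, the kinase Lck that starts receptor signalling, and the adhesion receptor Cd2. Of these, Cd4 is also made by some myeloid cells, and Cd2 by natural killer cells and by mouse B cells. Fewer lymphocytes and less transcript per lymphocyte cannot be told apart in RNA of whole lung.

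The probes read different stretches of the transcripts, which matters because the 2 probes of Cd4 disagreed. All levels are log2 of the spot signal over the 75th percentile of its array, so 0 is the 75th percentile and a step of 1 is a doubling. For each gene the brighter probe was used for the counts, and these 9 probes were well above background on all 32 arrays. The array annotation, on build mm9, places the bright probes at chr19:11325367-11325426 for Ms4a1, chr11:106172780-106172839 for Cd79b, chr9:44806828-44806887 for Cd3e, chr9:44777868-44777927 for Cd3g, chr6:124814711-124814770 for Cd4, chr6:71328911-71328970 for Cd8a, chr4:129225614-129225673 for Lck and chr3:101079831-101079890 for Cd2. The bright Cd79a probe is placed on chromosome 12, whereas RefSeq holds Cd79a on chromosome 7, so its own position is uncertain. The second Cd79a probe, which the annotation leaves unmapped, is reported beside it in some of the comparisons. That probe and the second probes of Cd8a and Cd2 lie inside the transcripts, from bases 321, 464 and 627, and their sequences are shown because they are the independent readings of 3 members.
Cd79a: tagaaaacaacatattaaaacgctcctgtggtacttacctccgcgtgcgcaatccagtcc
Cd8a: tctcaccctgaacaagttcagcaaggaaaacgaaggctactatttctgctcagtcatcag
Cd2: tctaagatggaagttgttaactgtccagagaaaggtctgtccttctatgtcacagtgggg

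Promoter sequences were at hand in RefSeq (GRCm38.p6) for 5 of the 9 members, Cd79a, Cd3e, Cd3g, Cd8a and Lck, with 2 start sites for Lck. Whether these sequences bear on the oxygen differences was not tested. The 250 bases before the start were searched on both strands for CAGGAAG, a form of the site bound by Ets-family factors, which are active in lymphocytes. It was present in 4 of the 6 member promoters, those of Cd79a, Cd3e and Lck (at both of its starts), and in 10.8% of all 32851 promoters of this length. The octamer ATGCAAAT, bound by Oct factors, was in none of the 6 member promoters and in 1.6% of all. Of the 4 motifs searched, the E-box CAGGTG was in 3 of the 6, those of Cd79a, Cd3g and 1 start of Lck, and in 17.2% of all, and TGTGGT, bound by Runx factors, was in 1, of Lck, and in 14% of all. The sequences of Cd79a, Cd3e and Cd8a follow, read 5′ to 3′ along the gene, with each match to CAGGAAG in capitals and the other motifs left in lower case (on Cd3e the match is on the opposite strand and reads as its complement). Cd8a had no match to any of the 4.
Cd79a chr7:24897247-24897496 forward strand: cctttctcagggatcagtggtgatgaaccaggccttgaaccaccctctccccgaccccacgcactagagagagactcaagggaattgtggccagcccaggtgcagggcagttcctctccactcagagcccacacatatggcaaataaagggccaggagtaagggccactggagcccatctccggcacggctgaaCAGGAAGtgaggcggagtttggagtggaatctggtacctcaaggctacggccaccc
Cd3e chr9:45009612-45009861 reverse strand: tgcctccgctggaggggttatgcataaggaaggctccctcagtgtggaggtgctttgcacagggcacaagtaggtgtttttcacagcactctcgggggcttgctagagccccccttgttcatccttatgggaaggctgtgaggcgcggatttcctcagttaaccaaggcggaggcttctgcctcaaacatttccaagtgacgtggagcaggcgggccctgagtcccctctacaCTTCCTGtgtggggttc
Cd8a chr6:71373177-71373426 forward strand: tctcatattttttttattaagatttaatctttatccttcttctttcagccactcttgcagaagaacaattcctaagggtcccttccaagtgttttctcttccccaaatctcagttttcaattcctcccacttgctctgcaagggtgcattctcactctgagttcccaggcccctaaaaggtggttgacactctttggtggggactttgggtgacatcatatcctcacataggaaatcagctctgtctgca

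Before the results, 4 arrays need naming. The 32 arrays had 33606 to 40774 probes well above background. Each of the 4 slides held the 8 mice of 1 age at 1 oxygen level, so oxygen and age cannot be told apart from slide, and within a slide the treatments lay in different rows of arrays, so antimiR-34a cannot be told apart from array row. Among the P14 mice in 21% O2, scrambled replicate 4 had a 75th percentile of 9.34 (log2 signal) against 10.12 to 10.18 in the other scrambled mice, and antimiR-34a replicate 1 had 10.20 against 9.56 to 9.64 in its group, so each of these mice resembled the other treatment in brightness. Both Cd4 probes set them apart in the same way. Scrambled replicate 4 read −0.49 on the bright and −4.22 on the dim probe, beside −0.53 to −0.51 and −4.31 to −4.23 in antimiR-34a replicates 2 to 4, and antimiR-34a replicate 1 read −0.0080 and −4.64, beside 0.06 to 0.13 and −4.94 to −4.74 in scrambled replicates 1 to 3. Over all probes, the antimiR-34a comparison at P14 in 21% O2 called 0 with every mouse, 1222 without scrambled replicate 4 and 34 without antimiR-34a replicate 1 (limma). Whether these 2 mice carry each other's label was not tested, and the labels were kept. The second of them was also high for thymus genes, described further down. At P5 the antimiR-34a mouse of replicate 4 in 21% O2 was high for the thymocyte gene Dntt and for Cd8a. P5 scrambled replicate 4 in 21% O2 carried skeletal muscle genes (mean level of the 8 genes of that list 1.92, against −3.60 at the lowest mouse of its group). Results that rest on these arrays are given with and without them.

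The question behind the first comparison is how oxygen altered the developing lung, and the lymphocyte genes differed mainly at P14. In the scrambled mice at P14, 7 of the 9 members were lower in 85% O2 than in 21% O2, against 32.7% of all 38452 probes tested (60.9% in either direction), and none was higher, against 28.2% of probes. All 3 B cell genes were lower, by 2.13-fold to 3.87-fold, as were Cd8a, Cd2, Lck and Cd3g among the 6 T cell genes. Cd3e and Cd4 were not called. The median of the 9 differences was −1.09 on the log2 scale, and the 7 genes called were also the 7 whose mice in 85% and 21% O2 did not overlap, which held for 56.6% of all probes.

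**Figure D1:**
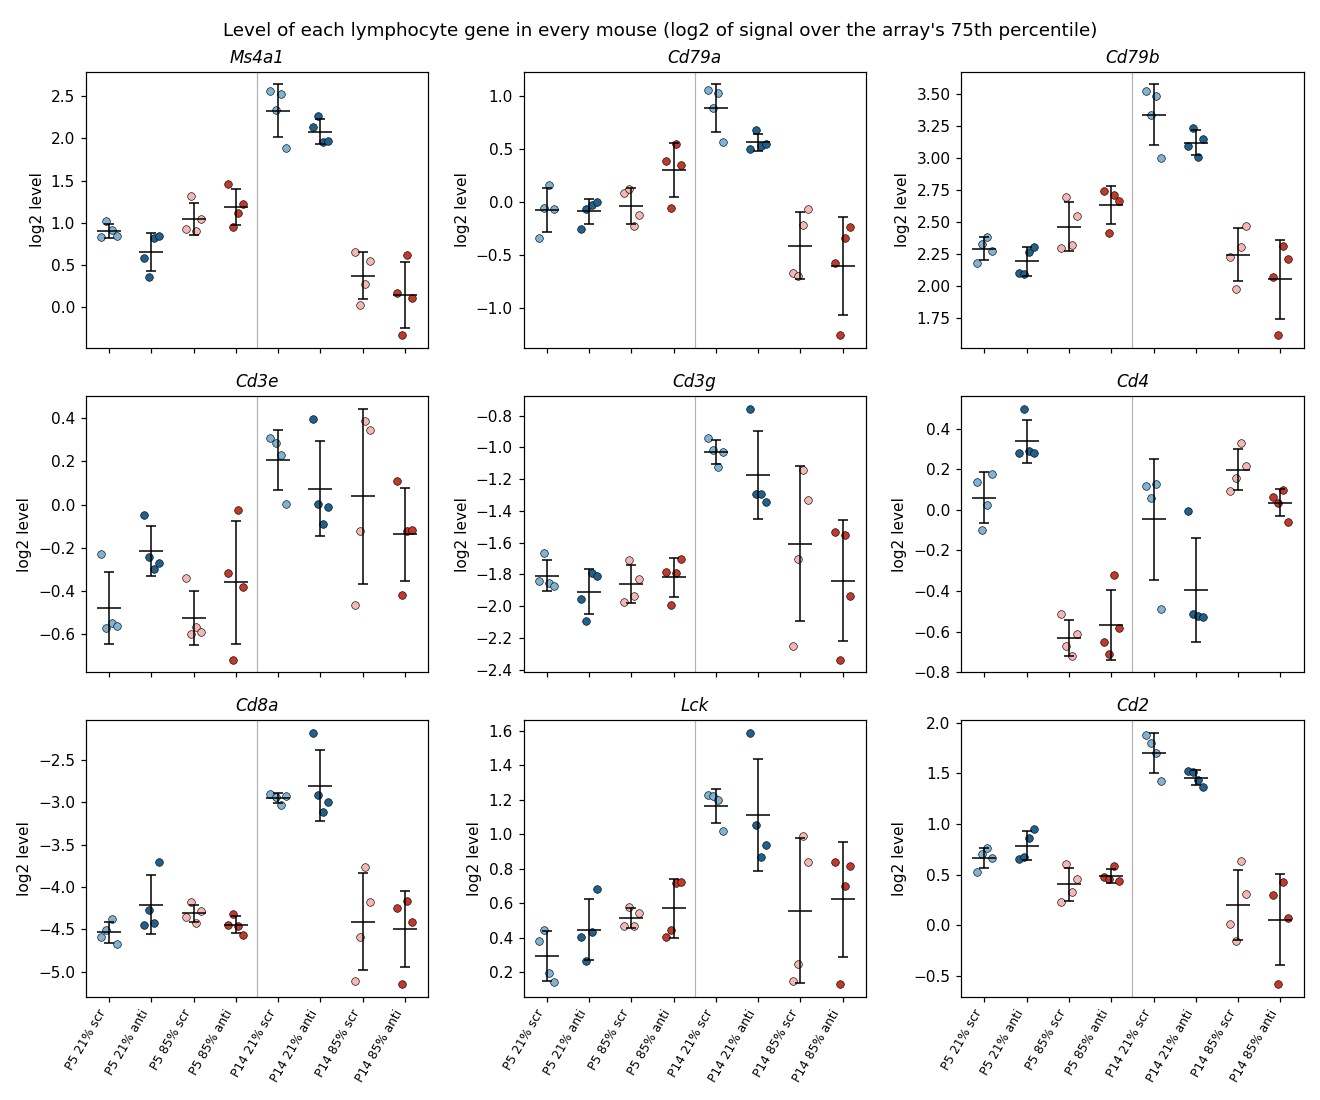
Log2 level (vertical axis, signal over the 75th percentile of the array) of the bright probe of each member in every mouse, by group on the horizontal axis (scr, scrambled; anti, antimiR-34a; 21% and 85%, oxygen). Points are mice, lines are group means and bars are SD (n = 4). The P14 mice in 21% O2 (blue, right of the line) sit above every mouse of the other groups for Ms4a1, Cd79b, Cd8a and Cd2, and Cd4 has a different order.

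Ms4a1, the B cell surface protein CD20, stood at 2.56, 2.34, 2.53 and 1.88 in the scrambled P14 mice in 21% O2. The 4 mice in 85% O2 stood at 0.65, 0.03, 0.27 and 0.55. Even the lowest mouse in 21% O2 was above the highest in 85% O2, and the difference of −1.95 ± 0.20 (SE), a 3.87-fold lower level, was the largest among the members (limma, adjusted p = 2.35e-06). Cd79b, the second signalling chain of the B cell receptor, read 3.53, 3.33, 3.48 and 3.00 in 21% O2 and 2.23, 1.98, 2.30 and 2.47 in 85% O2, again without overlap, and was 2.13-fold lower (limma, adjusted p = 4.04e-05). Cd79a, its partner, read 1.05, 0.88, 1.03 and 0.57 in 21% O2 and −0.67, −0.70, −0.22 and −0.07 in 85% O2, a 2.45-fold lower level (limma, adjusted p = 0.000103). The second Cd79a probe gave the same direction, at 2.02-fold (limma, adjusted p = 0.000369), with −2.60, −2.55, −2.42 and −2.91 in 21% O2 and −4.01, −3.84, −3.48 and −3.21 in 85% O2. In each of these 3 genes scrambled replicate 4 was the lowest of the mice in 21% O2. Without the 4 arrays named above the B cell differences were −2.10 for Ms4a1, −1.40 for Cd79a and −1.20 for Cd79b.

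Among the T cell genes the differences were uneven. Cd8a, the coreceptor of cytotoxic T cells and of most thymocytes, read −2.90, −2.93, −3.04 and −2.92 in 21% O2 and −5.11, −4.59, −3.76 and −4.18 in 85% O2. The mice in 21% O2 lay within 0.06 (SD) of each other while those in 85% O2 spread by 0.58, and the level was 2.75-fold lower in 85% O2 (limma, adjusted p = 0.000511). The second Cd8a probe was above background in 4 of 4 mice in 21% O2 and in 0 of 4 in 85% O2, a level at least 1.98-fold lower, the bound being taken against the faintest probe above background on each dim array or the probe's own signal, whichever was higher. That probe was tested only through the groups in 21% O2, so this is a description and adds no support to the first. Cd2, an adhesion receptor, read 1.88, 1.80, 1.70 and 1.42 in 21% O2 and 0.01, −0.16, 0.63 and 0.31 in 85% O2, a 2.83-fold lower level (limma, adjusted p = 2.79e-05). Its second probe gave 3.1-fold (limma, adjusted p = 5.06e-06), so the 2 readings of Cd2 were alike in direction and size.

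Lck and Cd3g differed less and lost their call more easily. Lck, the receptor-proximal kinase, read 1.23, 1.22, 1.20 and 1.02 in 21% O2 and 0.15, 0.25, 0.99 and 0.84 in 85% O2, 1.52-fold lower (limma, adjusted p = 0.0238). Cd3g, a chain of the receptor complex, read −0.94, −1.02, −1.13 and −1.03 in 21% O2 and −2.25, −1.70, −1.14 and −1.33 in 85% O2, 1.49-fold lower (limma, adjusted p = 0.0408). In both genes replicates 3 and 4 in 85% O2 lay close to the mice in 21% O2 and replicates 1 and 2 lay well below. Without scrambled replicate 1 of 85% O2 the difference of Cd3g was −0.36 (limma, adjusted p = 0.137) and that of Lck −0.47 (limma, adjusted p = 0.0775), and neither was called without replicate 2 of that group (limma, adjusted p = 0.0834 for Cd3g and 0.0731 for Lck). Lck was also not called without scrambled replicate 1 or 2 of 21% O2 (limma, adjusted p = 0.0510 and 0.0502), and Cd3g without any 1 of the 4 scrambled mice in 21% O2 (limma, adjusted p from 0.0543 to 0.0829) or without the 4 arrays (limma, adjusted p = 0.0591). With all arrays, Cd3g lost its call on the authors' processed values (limma, adjusted p = 0.0597) and with the replicate number as a block (limma, adjusted p = 0.0556). Further settings that lose it are given at the end.

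Cd3e, the signalling chain that sits in the same receptor complex as Cd3g, was not called. Its mice read 0.31, 0.29, 0.23 and 0.00 in 21% O2 and −0.46, −0.12, 0.39 and 0.35 in 85% O2, and the 2 groups overlapped widely, with a difference of −0.17 (95% interval −0.55 to 0.22; limma, adjusted p = 0.428). Replicates 3 and 4 in 85% O2 were above every mouse in 21% O2, and replicates 1 and 2 below them all. Whether Cd3e and Cd3g differed from each other was not tested.

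Cd4, the coreceptor of helper T cells, gave opposite answers on its 2 probes. The bright probe, near the end of the transcript, read 0.12, 0.06, 0.13 and −0.49 in the scrambled mice in 21% O2 and 0.09, 0.16, 0.33 and 0.22 in 85% O2, a difference of 0.24 that was not called (limma, adjusted p = 0.149). The dim probe, which begins at base 1242 and is printed in 10 spots, read −4.74, −4.81, −4.94 and −4.22 in 21% O2 and −5.25, −5.11, −5.13 and −4.93 in 85% O2, and was 1.34-fold lower (limma, adjusted p = 0.0177). Scrambled replicate 4 was the lowest mouse of its group on the bright probe and the highest on the dim one. In the antimiR-34a mice the bright probe was 1.35-fold higher in 85% O2 (limma, adjusted p = 0.0161; not called under normexp background correction, adjusted p = 0.102) and the dim probe 1.80-fold lower (limma, adjusted p = 0.000127), so no single direction can be given for Cd4 at P14.

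The same oxygen comparison at P14 was run in the antimiR-34a mice, which are separate animals. There 6 members were lower and 1, Cd4, was higher, 7 called in all against 65.5% of all probes (37.9% lower and 27.6% higher). Ms4a1 read 2.13, 2.26, 1.95 and 1.97 in 21% O2 and 0.17, −0.33, 0.62 and 0.10 in 85% O2, 3.83-fold lower (limma, adjusted p = 2.31e-06). Cd8a read −2.18, −2.91, −3.11 and −3.00 in 21% O2 and −4.24, −5.15, −4.16 and −4.42 in 85% O2, 3.23-fold lower (limma, adjusted p = 0.000132). The first of those mice, the one with thymus genes, was the highest of its group for Cd8a, and without the 4 arrays the Cd8a difference was −1.48. Lck missed the threshold here, at −0.49 (limma, adjusted p = 0.0573), with 1.59, 1.05, 0.87 and 0.94 in 21% O2 and 0.84, 0.13, 0.70 and 0.82 in 85% O2. Lck was called under quantile normalization (−0.54; limma, adjusted p = 0.0351), on the authors' processed values (limma, adjusted p = 0.0359) and without antimiR-34a replicate 3 of 21% O2 (−0.57; limma, adjusted p = 0.0476), and Cd3g was not called without antimiR-34a replicate 1 of 21% O2 (limma, adjusted p = 0.0638) or replicate 2 of 85% O2 (limma, adjusted p = 0.0687).

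**Figure D2:**
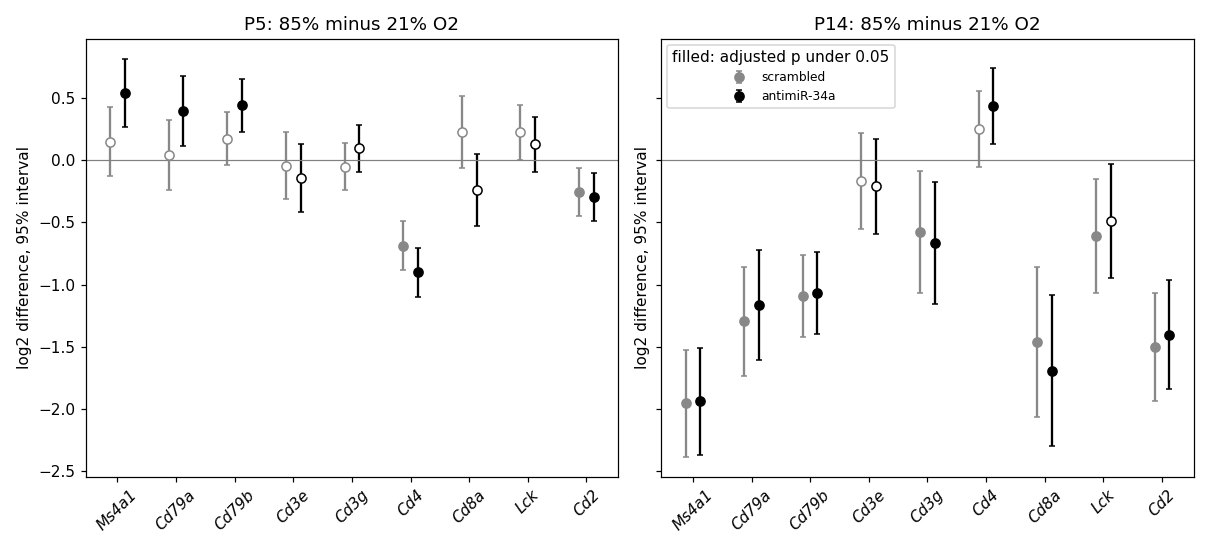
Difference in log2 level between 85% and 21% O2 (vertical axis) for each member (horizontal axis) at P5 (left) and P14 (right), in scrambled (grey) and antimiR-34a mice (black). Bars are 95% intervals and filled points have an adjusted p under 0.05. At P14 Ms4a1, Cd79a, Cd79b, Cd8a and Cd2 lie near −1 or below it in both treatments, and at P5 Cd4 lies lowest.

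At P5, after the first days of oxygen, the pattern was different. In the scrambled mice 2 of the 9 members were called, both lower in 85% O2, against 26.5% of 35981 probes lower, 17.4% higher and 43.9% in either direction, and no B cell gene was called. Cd8a, not called here, was called higher in 85% O2 on the authors' processed values (0.49; limma, adjusted p = 0.0159) and under quantile normalization (0.49; limma, adjusted p = 0.0158). Cd4 on its bright probe read 0.14, −0.10, 0.02 and 0.17 in 21% O2 and −0.51, −0.67, −0.72 and −0.61 in 85% O2, 1.61-fold lower without overlap (limma, adjusted p = 4.13e-05). The dim Cd4 probe differed by −0.12 and was not called (limma, adjusted p = 0.381). Cd2 was 1.20-fold lower (limma, adjusted p = 0.0301), with overlapping mice, and it was not called without any one of 5 of the 8 mice, scrambled replicates 2, 3 or 4 in 21% O2 or replicates 1 or 3 in 85% O2, its adjusted p then lying between 0.0550 and 0.0841. Its second probe was not called either (limma, adjusted p = 0.401). Of the cell lists described further down, macrophage genes were higher in 5 of 7 at P5 in 85% O2, beside 17.4% of all probes. Red blood cell genes were lower in 3 of 7 and skeletal muscle genes in 2 of 6, beside 26.5%. The part of these in the P5 result was not tested.

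The antimiR-34a mice at P5 had 5 members called, 2 lower and 3 higher in 85% O2, against 46.6% of probes in either direction, 29.5% lower and 17.1% higher. The 3 higher genes were the B cell genes. Ms4a1 read 0.58, 0.36, 0.81 and 0.84 in 21% O2 and 1.46, 0.95, 1.11 and 1.23 in 85% O2, 1.45-fold higher (limma, adjusted p = 0.00357), and Cd79b was 1.36-fold higher (limma, adjusted p = 0.00242), both without overlap. Cd79a was 1.31-fold higher (limma, adjusted p = 0.0238), but its second probe differed by 0.06 and was not called (limma, adjusted p = 0.774), and the call was lost without replicate 1 of 21% O2 (limma, adjusted p = 0.0714) or replicate 1, 3 or 4 of 85% O2. Cd4 was 1.87-fold lower (limma, adjusted p = 3.09e-06), and Cd2 was 1.23-fold lower (limma, adjusted p = 0.0146), a call lost without antimiR-34a replicate 4 of 21% O2 (limma, adjusted p = 0.0516). The second Cd2 probe differed by −0.04 and was not called (limma, adjusted p = 0.798). Whether the oxygen difference itself depended on the treatment was tested as an interaction, and no member was called at P5 by limma (smallest adjusted p = 0.405, 2 members with an unadjusted p under 0.05), against 0.0556% of probes.

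The ages were then compared within each oxygen level. Genes of other cells that rose with age are given further down. In 21% O2, 8 of the 9 members were higher at P14 than at P5 in the scrambled mice, against 27.7% of 39159 probes higher (23.8% lower, 51.4% in either direction), all 8 without overlap between the ages, which held for 49.1% of probes. Cd8a gained most, from −4.59, −4.51, −4.37 and −4.67 at P5 to the P14 levels given above, 3.01-fold (limma, adjusted p = 2.61e-06). Ms4a1 read 0.83, 1.02, 0.91 and 0.85 at P5 and was 2.69-fold higher at P14 (limma, adjusted p = 2.13e-07), and Cd79b was 2.06-fold higher (limma, adjusted p = 4.11e-07), Cd2 2.05-fold (limma, adjusted p = 7.82e-06) and Cd79a 1.94-fold (limma, adjusted p = 6.96e-05). The second Cd79a probe had a mean of −3.31 at P5 and −2.62 at P14 in these mice. Smaller gains were fitted for Lck, Cd3g and Cd3e, at 1.83-fold, 1.72-fold and 1.61-fold. Bright Cd4 did not change detectably (−0.11, 95% interval −0.35 to 0.14; limma, adjusted p = 0.483), while its dim probe was 2.04-fold higher (limma, adjusted p = 2.56e-07), though at P5 that probe was above background in 3 of the 4 mice.

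In 85% O2 fewer members differed between the ages. Of the 9, 3 were called between P5 and P14, against 42.1% of probes in either direction, 25.6% higher and 16.5% lower. Ms4a1 was lower at P14 by 1.60-fold (limma, adjusted p = 0.00252), while Cd3e was 1.48-fold (limma, adjusted p = 0.00566) and Cd4 1.78-fold higher (limma, adjusted p = 5.00e-06). Ms4a1 had been at 0.93, 1.32, 0.90 and 1.05 at P5 in 85% O2, so its P14 mice in 85% O2 all lay below their P5 counterparts. Without scrambled replicate 1 of P14 in 85% O2, Cd3g was also called (0.47; limma, adjusted p = 0.0193), and without replicate 4 Cd79a was (−0.49; limma, adjusted p = 0.0378).

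The difference between the oxygen effects at the 2 ages was tested directly in the scrambled mice. It was called for 7 members, 6 of them with a lower oxygen effect at P14 than at P5, against 18% of probes lower, 22.8% higher and 40.8% in either direction. The largest was Ms4a1 at −2.10 ± 0.24 (SE; limma, adjusted p = 4.76e-07), followed by Cd8a at −1.69 ± 0.32 (SE; limma, adjusted p = 0.000191), Cd79a at −1.33, Cd79b at −1.26, Cd2 at −1.24 and Lck at −0.83. Cd4 went the other way on its bright probe, at 0.93 ± 0.17 (SE; limma, adjusted p = 0.000121), and its dim probe was not called at −0.31 (limma, adjusted p = 0.169). Cd3e, at −0.12, and Cd3g, at −0.52, were not called (limma, adjusted p = 0.688 and 0.0959), and Cd3g was called without scrambled replicate 3 of P14 in 85% O2 (−0.68; limma, adjusted p = 0.0287). All of these scrambled comparisons share mice.

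Inhibition of miR-34a itself, the intervention of the study, was compared within each age and oxygen level. No member was called in any of the 4 comparisons by limma, where all probes were called at 0.136% (P5, 21% O2), 0.0639% (P5, 85% O2), 0% (P14, 21% O2, where 4032 probes had an unadjusted p under 0.05) and 2.67% (P14, 85% O2). The member differences ranged from −0.25 to 0.33, from −0.14 to 0.34, from −0.35 to 0.15 and from −0.23 to 0.07 in that order, and the members with an unadjusted p under 0.05 numbered 2, 1, 1 and 0. The methods' t-test with Benjamini-Hochberg adjustment also called 0 in each. The call on Cd4 depended on the arrays that stood apart. Without the P14 scrambled mouse of replicate 4 in 21% O2, bright Cd4 differed by −0.50 with antimiR-34a at P14 in 21% O2 (limma, adjusted p = 0.0483), and without all 4 arrays it was −0.62, where 6728 of all probes were called instead of 0. The 2 P14 mice then left out each read Cd4 like the other treatment, so leaving them out moves the Cd4 groups apart by construction, and these values are descriptions that support no effect on Cd4. The interaction with oxygen at P14 called no member by limma with all arrays (smallest adjusted p = 0.676, 0 with an unadjusted p under 0.05), against 0.0884% of probes, and the Cd4 interaction was 0.46 without the 4 arrays.

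Ordered by group mean, every member but Cd4 had the P14 mice in 21% O2 of both treatments at the top, and in Ms4a1, Cd79b, Cd8a and Cd2 both lay above every mouse of the other 6 groups. For Lck the second group did not overlap with the third but did with the fifth, since its lowest mouse was at 0.87 and the highest scrambled mouse of P14 in 85% O2 at 0.99. For these 5 genes, within the remaining 6 groups all neighbours in the order overlapped. For Cd79a, Cd3e, Cd3g and Cd4 all neighbouring groups overlapped, so no step in their order exceeded the spread between mice. Ms4a1 and Cd79a had their lowest group means in 85% O2 at P14 (0.38 ± 0.28 and −0.41 ± 0.32 in scrambled mice, SD, n = 4), below all P5 groups. Cd8a at P14 in 85% O2, at −4.41 ± 0.58, was among the P5 groups, which lay between −4.54 ± 0.13 and −4.21 ± 0.35 (SD, n = 4).

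The members also varied together from mouse to mouse. Over 32 arrays the 3 pairs of B cell genes had Pearson r of 0.92 to 0.97, and over the deviations of each mouse from its group mean, which leave the group differences out, r was 0.61 to 0.87. The 15 pairs of T cell genes had r of −0.09 to 0.90 over all arrays, the low end being Cd4 with Cd8a, and 0.30 to 0.86 within groups, where Cd3g with Lck was the highest. B and T genes together had 0.16 to 0.81 within groups in 18 pairs, the highest being Cd79b with Cd2. Members of one array share its RNA and scaling, so these are descriptions of the mice and not tests. In 85% O2 at P14 the mean of the 6 T genes ran from −1.26 to −0.43 in scrambled mice and from −1.39 to −0.74 in antimiR-34a mice, with an SD of 0.38 and 0.30 against 0.12 and 0.26 in 21% O2 at P14 and 0.04 to 0.11 in the P5 groups. The mean of the 3 B genes ran from 0.44 to 0.99 and from 0.01 to 0.86 in the same mice, with an SD of 0.23 and 0.37 against 0.26 and 0.10 in 21% O2 at P14 and 0.12 to 0.19 at P5, so the scrambled mice in 85% O2 were no more spread in their B genes than those in 21% O2.

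The genes whose pattern was most like the mean of the B members over the 32 arrays were Pou2af1, a B cell transcription coactivator (r = 0.98), Iglv1, an immunoglobulin light chain gene (r = 0.97), Fcmr, the receptor for immunoglobulin M (r = 0.97), Fcrla, an Fc receptor-like protein of B cells (r = 0.97), and Spib, an Ets-family factor (r = 0.95). Within groups their r was 0.85 to 0.92. For the T members they were Cd3d, a further chain of the T cell receptor complex (r = 0.94), Ptpn22, a lymphocyte phosphatase (r = 0.92), Rnase6 (r = 0.91), Ms4a4b, a T cell membrane protein (r = 0.91), and Gria1, a glutamate receptor subunit (r = 0.91). Gria1 had r = 0.57 within groups and Cd3d 0.87, so the likeness of Gria1 lay mostly in the group means.

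Other lymphocyte genes, from lists made beside the members, were counted in the same fits. Of the 14 other B cell genes 13 were above background in every scrambled mouse of both oxygen levels at P14, and all 13 were lower in 85% O2, beside 32.7% of all probes (the other, Blk, was above background in 2 of 4 mice in 85% O2), with a median of −1.32 on the log2 scale against −0.07 over all probes tested. All 14 were higher at P14 than at P5 in 21% O2, beside 27.7% of all probes, with a median of 1.06 against 0.04. The largest differences in oxygen were those of Cr2, the complement receptor of B cells, 3.86-fold lower (limma, adjusted p = 3.78e-06), and Fcrla, 3.78-fold lower (limma, adjusted p = 2.84e-06). Between the ages they were Cd72, a B cell inhibitory receptor, at 1.76, and Blk, a B cell kinase, at 1.55. At P5, 6 of the 14 were called for oxygen, 3 higher and 3 lower, a share near the 43.9% over all probes, led by Cd22 at −0.53 and Vpreb3 at −0.53, and the oxygen effect differed between ages for 11, all toward a lower effect at P14, beside 18% of all probes.

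Of 18 other T cell genes 15 were above background in every scrambled mouse of both oxygen levels at P14, and of these 12 were lower, 1 was higher and 2 were not called in 85% O2, with a median of −0.81, beside 32.7% of all probes lower. Trat1, a T cell receptor-associated adaptor, was fitted at −2.26 but is not among the 15, with 2 of 4 mice in 85% O2 above background, and Cd8b1, the partner chain of Cd8a, was 4.45-fold lower (limma, adjusted p = 3.28e-05). The 1 higher gene was Cd247, the zeta chain of the receptor complex, at 0.75 (limma, adjusted p = 0.00449). With age in 21% O2, 12 of the 17 so measured were higher and 1 was lower, beside 27.7% of all probes higher and 23.8% lower, Trat1 being at 1.76. Cd247, left out of the 17 with 2 of 4 P5 mice above background, was fitted at 2.14. At P5, 4 of 17 were higher in 85% O2, beside 17.4% of all probes, and 2 were lower, beside 26.5%, and Il7r, the receptor for interleukin 7, was at 0.56. Cd247, with 2 of 4 mice in 21% O2 above background, was fitted at 1.49.

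Genes of lymphocytes that circulate and home to lymphoid tissue gave 5 lower, 1 higher and 1 not called of 7 above background in every scrambled mouse of both oxygen levels (9 listed) in 85% O2 at P14, beside 32.7% of all probes lower and 28.2% higher. Cxcr5, the chemokine receptor of follicular B cells, was 5.09-fold lower (limma, adjusted p = 4.97e-06). S1pr1, which lets lymphocytes leave lymphoid organs and is abundant in endothelium, was 3.31-fold higher (limma, adjusted p = 3.09e-06). With age in 21% O2, 7 of the 8 were higher, beside 27.7% of all probes, led by Ccr7, which guides lymphocytes into lymph nodes, at 1.34 and Cxcr5 at 1.28, and at P5 1 of the 8 was called for oxygen, S1pr1 at 0.63, beside 43.9% of all probes.

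**Figure D3:**
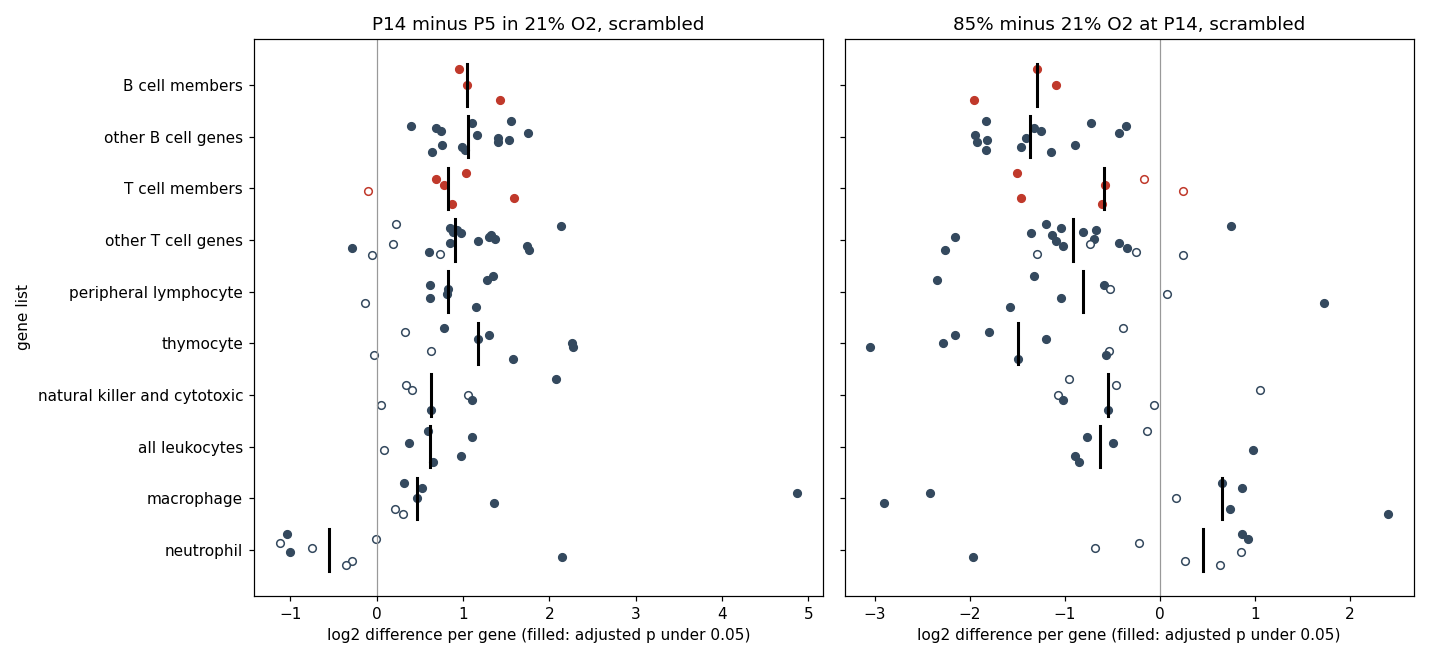
Difference in log2 level (horizontal axis) for each gene of 10 lists (rows) between P14 and P5 in 21% O2 (left) and between 85% and 21% O2 at P14 (right), in scrambled mice. Red points are the 9 members, filled points have an adjusted p under 0.05 and black bars are list medians. Points and medians take in every tested gene of a list, also those the text leaves uncounted for lack of signal in some mice. Among these are the thymocyte genes Rag1, Rag2, Ptcra and Themis, whose direction the filter fixed. The B cell rows lie wholly right of 0 on the left and wholly left of 0 on the right, and the macrophage and neutrophil medians lie right of 0 on the right.

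Thymus RNA was looked for because the thymus touches the lung. Of 10 thymocyte genes, Cd8b1 was also counted among the other T cell genes, and the recombinase genes Rag1 and Rag2 and the terminal transferase gene Dntt also among B cell precursor genes. At P14, 9 of the 10 were tested. Of these, 5 were above background in every scrambled mouse of both oxygen levels, and 4 of the 5 were lower in 85% O2 and 1 was not called, beside 32.7% lower over all probes. The other 4, Rag1, Rag2, Ptcra and Themis, were above background in none of the scrambled mice in 85% O2. A gene tested because it was high in 21% O2 could then only come out lower, so these 4 are not counted. Rag1 was above background in 4 of 4 scrambled mice in 21% O2 and in 0 of 4 in 85% O2, at least 2.50-fold lower. Ptcra, the pre-T cell receptor chain, was above background in 4 of 4 and 0 of 4, at least 2.07-fold lower. Both folds are descriptions, since the filter fixed their direction. Dntt read −3.09, −3.50, −2.92 and −2.41 in 21% O2 and −4.25, −4.02, −4.36 and −4.07 in 85% O2. The mean level of the 10 genes ran from −3.57 to −2.92 in the scrambled P14 mice in 21% O2. In 85% O2 it ran from −5.03 to −4.52. This mean includes the 4 genes not counted and the untested gene, so it is a description. Over the 5 counted genes the median difference was −1.20 on the log2 scale. As a set, the counted genes moved with the members in this comparison, and their part in the result was not tested.

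With age in 21% O2, 3 of the 5 thymocyte genes above background in every mouse of both ages were higher at P14, beside 27.7% over all probes, and the same 4 as above were not counted. Rag1, at least 2.71-fold higher, and Ptcra, at least 2.30-fold, were above background in 4 of 4 mice at P14 and 0 of 4 at P5. At P5 Rag1 was above background in 4 of 4 scrambled mice in 85% O2 and in 0 of 4 in 21% O2, without a call (limma, adjusted p = 0.127). Of the 2 thymic epithelium genes above background in every scrambled mouse of both oxygen levels at P14, 1 was higher in 85% O2 and 1 was not called. At P5, of 3 such genes, Prss16 was 1.90-fold higher (limma, adjusted p = 0.000773) and Ccl25 1.21-fold higher (limma, adjusted p = 0.0232) in 85% O2 and 1 was not called. Foxn1, the master factor of that epithelium, was above background at P14 in 1 of the 4 scrambled mice in 21% O2, replicate 4, in 0 of 4 in 85% O2 and in 4 of the 4 antimiR-34a mice in 21% O2. Psmb11, a proteasome subunit found in the cortex of the thymus, was above background in 1 of the 8 P14 mice in 21% O2 and in none of the 8 in 85% O2. Tbata, the 1 higher at P14, was 2.24-fold higher in 85% O2 (limma, adjusted p = 0.00228).

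**Figure D4:**
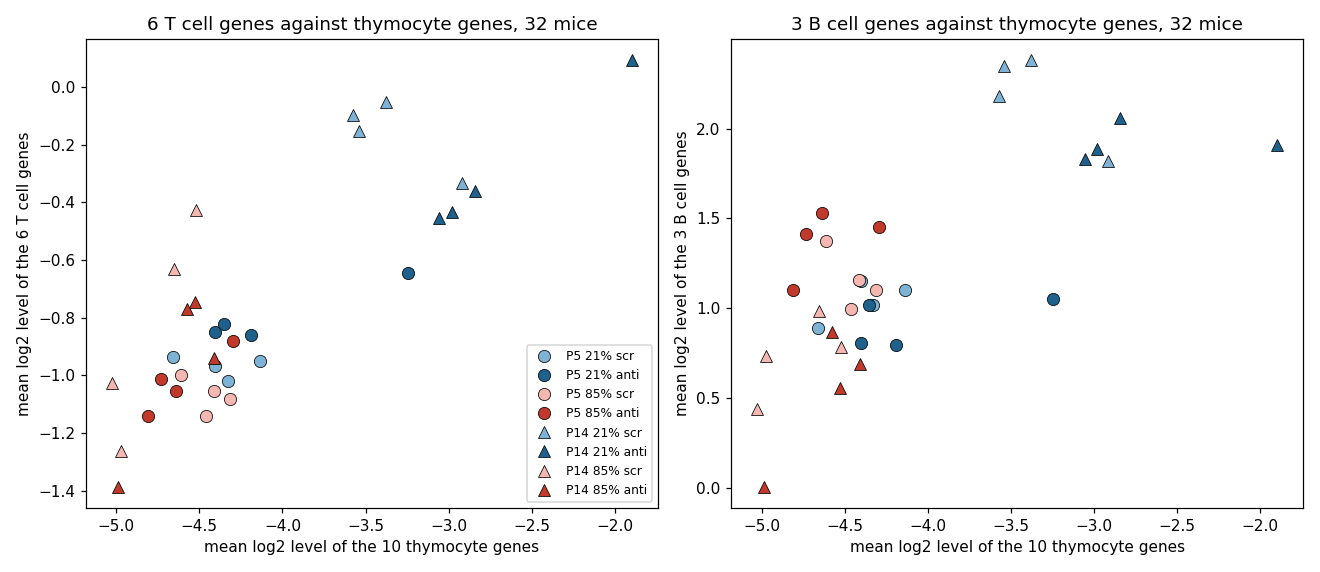
Mean log2 level of the 6 T cell members (left, vertical axis) and of the 3 B cell members (right, vertical axis) against the mean log2 level of the 10 thymocyte genes (horizontal axis), 1 point per mouse (circles P5, triangles P14; colours as named in the key). The P14 antimiR-34a mouse in 21% O2 farthest to the right, at −1.90, has the highest T mean (0.09), while its B mean (1.91) lies among those of its group. The thymocyte mean includes genes that were below background in some mice.

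The mouse with the highest mean of the thymocyte genes was antimiR-34a replicate 1 of P14 in 21% O2, and the source of these transcripts was not tested. Its Dntt stood at 0.06 against −2.25, −2.68 and −2.76 in the other mice of the group, its Rag1 at −1.42 against −4.03, −4.92 and −4.82, and its Prss16, a protease of thymic epithelium, at −0.68 against −3.08, −4.19 and −4.65. It was the highest of its group for Cd8a, Lck, Cd3e, Cd3g, Cd4 on its bright probe and, by a small step, Cd2, but not for any B cell gene. On the dim Cd4 probe it was the lowest of its group, at −4.64. At P5 the antimiR-34a mouse of replicate 4 in 21% O2 had Dntt at −2.73 against −3.86, −3.95 and −3.71, and Cd8a at −3.70 against −4.45, −4.27 and −4.42. In that group Ptcra, Foxn1 and Psmb11 were above background in 0 of 4 mice. The mean of its thymic epithelium genes ran only from −4.97 to −4.86. Within groups, over 32 arrays, the thymocyte mean had r of 0.71 with Cd8a, 0.64 with Lck, 0.52 with Cd3g and 0.37 with Cd3e. For Cd2 and Cd4 r was 0.36 and 0.18. With the B genes r was 0.12 (Ms4a1), 0.31 (Cd79a) and 0.20 (Cd79b), so Cd4 lay within the range of the B genes. The thymocyte list holds Cd8b1, the partner chain of Cd8a. Without the 4 arrays, 6 members were lower in 85% O2 at P14 in scrambled mice and 5 in antimiR-34a mice, with Cd4 higher, the gene lost in both being Cd3g.

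Other cells were read from lists as well. Of 6 fat-cell genes, 3 were above background in every scrambled mouse of both oxygen levels at P14 and all 3 were lower in 85% O2, beside 32.7% over all probes. The other 3, Cfd, Car3 and Adipoq, were above background in 4 of 4 mice in 21% O2 and in 0 of 4 in 85% O2 and could only come out lower. The mean of the list, which includes these 3, ran from −1.15 to 2.58 in scrambled mice in 21% O2 and from −5.60 to −5.36 in 85% O2. The defining gene Adipoq, of adiponectin, was above background in 8 of 8 P14 mice in 21% O2 and in 1 of 8 in 85% O2. Over the 3 counted genes the median difference was −3.52 on the log2 scale, so these moved with the members between these groups. The part of fat-cell genes in the result was not tested. Within the scrambled mice in 21% O2 Adipoq was at 1.62, −1.26, −1.37 and −1.89 and Ms4a1 at 2.56, 2.34, 2.53 and 1.88. Over all probes 32.7% were lower and 28.2% higher in this comparison, and the short lists that follow are read against these shares, over the genes above background in every scrambled mouse of both oxygen levels. Macrophage genes were higher in 4 of 7 and lower in 2 in 85% O2, and neutrophil genes higher in 2 of 7 and lower in 1. Red blood cell genes were lower in 2 of 5 and skeletal muscle genes in 3 of 6, with none higher, and the part of these in the result was not tested. Of 6 genes common to all leukocytes, 4 were lower and 1 was higher, and Ptprc, which encodes CD45, was 1.86-fold lower (limma, adjusted p = 1.45e-06). Natural killer and cytotoxic genes were lower in 2 of 6, a share near that over all probes, immunoglobulin and plasma cell genes in 2 of 3 (7 listed), B cell precursor genes in 1 of 2 and genes of lymph node stroma in 1 of 3 (5 listed), the last being Ccl19, a chemokine that draws lymphocytes, 2.94-fold lower (limma, adjusted p = 4.52e-07). All 8 lung epithelial and endothelial genes were above background on every array, and 3 of the 8 were higher in 85% O2, with none lower. With age in 21% O2, on genes above background in every scrambled mouse of both ages, other lists rose as well. Higher were 3 of 3 fat-cell, 5 of 7 macrophage, 5 of 6 leukocyte and 7 of 8 lung genes, beside 27.7% of all probes, with none lower. Neutrophil genes were higher in 1 of 8 and lower in 2, and red blood cell genes were lower in 2 of 6. Their part in the age result was not tested.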

How the data were processed

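Lung RNA of 32 mice was hybridised in one colour to Agilent mouse arrays, and the deposited per-array files hold spot intensity as the authors' scanner software (Agilent Feature Extraction 10.7.3.1, per the labels and file headers) gave it. Agilent's processed signal, after its background subtraction, was divided by the 75th percentile of each array and taken to log2. The authors' deposited table of normalized log2 values of the same arrays served as an alternative and correlated with these values at 0.997 or more on every array. Control spots and outlier spots (0.211%) were left out, 0 spots of mouse probes were saturated, and spots of one probe were averaged, giving 55681 probes. A probe was tested where it was well above background in all 4 mice of at least 1 group compared. For genes with several probes the one with the highest mean level was named, and the other probes of members are given beside it in some comparisons.

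Differences were tested with limma 3.58.1 in R 4.3.3 (lmFit and eBayes, two-sided) with Benjamini-Hochberg adjustment over all probes tested, at 0.05. The 4 groups of an age entered one fit, and ages were compared in a fit of all 32 arrays. The study's methods name Welch's test with Benjamini-Hochberg adjustment, which was run as an alternative and is called the methods' t-test. Other alternatives were normexp background correction with an offset of 50, quantile normalization, other filters on dim probes, the replicate number as a block, only the arrays compared, and each array left out in turn. Leaving out the 4 arrays that stood apart was chosen after seeing the data. Genes outside the members were named as the 2 with the largest called differences of a lymphocyte or thymus list, the 5 most correlated with the B or the T members, and the thymus markers Rag1, Dntt, Ptcra, Foxn1 and Psmb11. Adipoq, Cfd, Car3, Rag2, Themis, Prss16, Ptprc, Ccl19 and, at P14, Cd247 were chosen after their values were seen. The members and gene lists were chosen with earlier results of these data known. The number of arrays limits the precision.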

Additional observations from a re-analysis of the deposited data

Results flagged for a closer look

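Single mice stood far from the other 3 of their group in 8 of the 72 member groups and 2 of the 40 groups of list means, where chance gives about 1 in 20. Of these, 4 fell on mice named earlier. AntimiR-34a replicate 1 of P14 in 21% O2, the mouse with thymus genes, was high for Cd3g at −0.76 and for bright Cd4 at −0.0080. Scrambled replicate 4 of the same age and oxygen level was low for bright Cd4 at −0.49 and for Lck at 1.02. At P5, scrambled replicate 1 was high for Cd3e in 21% O2 at −0.23 and in 85% O2 at −0.34. Scrambled replicate 2 in 21% O2 was high for Cd3g at −1.66, and antimiR-34a replicate 2 in 21% O2 was high for Cd4 at 0.50. Of the list means, the other T cell genes were low in scrambled replicate 1 of P5 in 85% O2 at −3.00, and the thymic epithelium genes in scrambled replicate 3 of P5 in 21% O2 at −5.20.

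The oxygen difference of 7 members differed between P5 and P14 in the scrambled mice by the test of the difference itself (limma, adjusted p from 4.76e-07 to 0.00794). The P14 difference minus the P5 difference was −2.10 for Ms4a1, −1.69 for Cd8a, −1.33 for Cd79a, −1.26 for Cd79b, −1.24 for Cd2, −0.83 for Lck and 0.93 for Cd4 on its bright probe.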

How the results depend on the processing

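Over the 7 oxygen and age comparisons of the 9 members no called difference turned its sign under any alternative run. With only probes above background on every array, 63 of 63 calls stayed on their side of the threshold, and with one array left out, 550 of 576 did, 22 being lost and 4 gained. The members called then numbered 1 to 2 for oxygen at P5 in scrambled mice, 4 to 5 in antimiR-34a mice, 5 to 7 and 6 to 8 at P14, 8 to 8 for age in 21% O2, 3 to 4 in 85% O2, 7 to 8 for oxygen by age, and 0 to 1 for antimiR-34a at P14 in 21% O2. Oxygen at P5 in scrambled mice called 1 member instead of 2, with Cd2 lost, under normexp, without a filter on dim probes, with only the arrays compared and by the methods' t-test, which also called 3 instead of 5 in the antimiR-34a mice. Without the 4 arrays, chosen after seeing the data, 1 member instead of 0 was called for antimiR-34a at P14 in 21% O2 and 1 instead of 0 for its interaction with oxygen, both times Cd4, which the 2 P14 mice left out read like the other treatment. Cd3g lost its P14 call in scrambled mice under normexp (adjusted p = 0.0656), quantile normalization (0.0594), the authors' values (0.0597) and every other alternative setting except the stricter filter on dim probes, and kept it when replicate 3 or 4 of the scrambled mice in 85% O2 was left out. In the antimiR-34a mice it lost the call under quantile normalization (0.0740), the authors' values (0.0759) and the methods' t-test (0.0572). Cd4 there was lost under normexp (0.102) and the methods' t-test (0.0670), and Lck was gained under quantile normalization (0.0351) and the authors' values (0.0359). The methods' t-test also lost Lck at P14 in scrambled mice (0.0972) and Cd3e with age in 85% O2 (0.141). Cd8a at P5 in scrambled mice was called higher in 85% O2 under quantile normalization (0.49; limma, adjusted p = 0.0158) and on the authors' values (0.49; limma, adjusted p = 0.0159). Quantile normalization moved mean levels by more than the spread between mice, to 1.25, 1.11, 1.37 and 1.58 for the B members in the P5 groups (21% scrambled, 21% antimiR-34a, 85% scrambled, 85% antimiR-34a) and 2.18 at P14 in 21% antimiR-34a mice, and to −0.78, −0.63, −0.79 and −0.78 for the T members in the same P5 groups and 0.030 at P14 in 21% scrambled mice. The causes were not tested.

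Deviations of same-numbered mice of the groups compared had r from −0.35 to 0.50. The same-numbered mouse was the best match in 0 to 3 of the 4 pairs of a comparison. For oxygen at P14 in scrambled mice all 4 pairs had r above 0, from 0.0027 to 0.11. Whether such mice share more than a number cannot be read from this, and the main fits were unpaired. With the replicate number as a block, 6 instead of 7 members were called for oxygen at P14 in scrambled mice, Cd3g being lost (limma, adjusted p = 0.0556), and no other call changed.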
